A study of Homo sapiens with 4 samples.

Results

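ABLIM1, ABLIM3, LIMCH1, LIMA1, SYNPO, SYNPO2 and ENC1 are 7 genes whose proteins bind or organise actin filaments, out of 58884 genes counted in the series. The first 4 encode LIM-domain proteins, SYNPO and SYNPO2 encode the synaptopodins, and ENC1 encodes an actin-binding BTB-kelch protein. The genes were taken from a list of symbols matched to the Ensembl identifiers of the count tables, and all 7 were found and passed the filter on low counts. They were chosen by their function and by their fitted log2 fold changes between knockdown and control in these same 4 libraries, so their differences between the groups are given as a description, and any count of calls among them supports nothing.

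Expression was measured by RNA sequencing of HCT116 cells, an established line from a human colorectal carcinoma. The cell line label names it for all 4 libraries, while the source label of replicate 2 in each group gives HCT-117, a difference that no other label explains. One arm holds 2 libraries of cells in which RALY was knocked down, and the other arm 2 control libraries. RALY belongs to the hnRNPs, nuclear proteins that bind RNA. Per the labels' protocols, cells were exposed to lentivirus with a short hairpin RNA against RALY, or with a nonsilencing hairpin, for 72 h in the presence of a polycation that aids infection. Other labels call the controls untreated or wild type, so it is not settled whether they carried the nonsilencing hairpin. No source used here gives the number of hairpins or says that the replicates are separate cultures, so errors and p-values measure a spread that could be purely technical.

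RALY had 634 and 522 counts in the knockdown libraries, against 1903 and 2132 in the controls. Its level was 37.3 ± 3.15 CPM (counts scaled to a common total of 1e6) in the knockdown and 134 ± 14.8 CPM in the controls (SD, n = 2 each), which leaves 27.9% of the control level. Library totals ran from 14762755 to 16493967 counts in the knockdown and from 13360007 to 16847520 in the controls. Of 7 markers of colorectal epithelium, all were detected and their summed level was 628 to 671 CPM in the knockdown and 599 to 694 CPM in the controls, although VIL1, which encodes villin, averaged only 0.811 CPM in the knockdown and 0.822 CPM in the controls. Of this list, CDX2, an intestinal transcription factor, fell by 0.47 on the log2 scale (adjusted p = 0.0311 by edgeR). Of 5 leukocyte markers none was called, and PTPRC, the pan-leukocyte marker, averaged 0.382 CPM in the knockdown and 0.154 CPM in the controls. Of 7 fibroblast markers none was called, and their sum was 103 to 132 CPM in the knockdown and 127 to 148 CPM in the controls, nearly all from COL1A1 and PDGFRB. Of 5 genes of HEK293T cells, a line used to package lentivirus, NEFH was called as higher (log2 fold change 2.55, edgeR adjusted p = 0.00097). NEFH had 44 and 46 counts in the knockdown libraries, against 6 and 9 in the controls. The sum of the 5 was 32.4 to 39.1 CPM in the knockdown and 32.6 to 35.2 CPM in the controls. Most of it came from PAX2, which averaged 28.4 CPM in the knockdown and 30.5 CPM in the controls. LIN28B averaged 4.06 CPM in the knockdown and 2.90 CPM in the controls and was not called, and NEFM and NEFL were too low to be tested.

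Actin filaments are bundled, anchored and linked to junctions by adaptor proteins. A LIM domain is a pair of zinc fingers that binds other proteins, and LIM proteins place partners on stress fibres, focal adhesions and cell junctions. Synaptopodins bind alpha-actinin and filamin and are best known from podocytes, dendritic spines and muscle. BTB-kelch proteins such as ENC1 bind actin through the kelch repeats and can act as substrate adaptors of CUL3 ubiquitin ligases.

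SYNPO and ENC1 stood apart from the other 5 genes and moved in opposite directions. SYNPO was 6.25-fold lower and ENC1 6.43-fold higher in the knockdown, while the log2 fold changes of the other 5 lay between -0.40 and 0.32. By edgeR's quasi-likelihood test 1 of the 7 was called as higher and 1 as lower, beside 12.5% and 13.1% of the 19686 genes tested, or 25.6% in both directions. Knockdown and control levels did not overlap in 5 of the 7, beside 63.6% of all genes tested. Of these, 3 were higher in the knockdown, beside 32.3% of all genes, and 2 lower, beside 31.3%. The median log2 fold change was 0.13 over the 7 genes and 0.01 over all genes tested, and nothing is read from these shares, since the same contrast chose the genes. In size of log2 fold change, SYNPO and ENC1 each lay at the 99.4th percentile of all genes tested, and LIMA1 at the 5.50th.

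**Figure D1:**
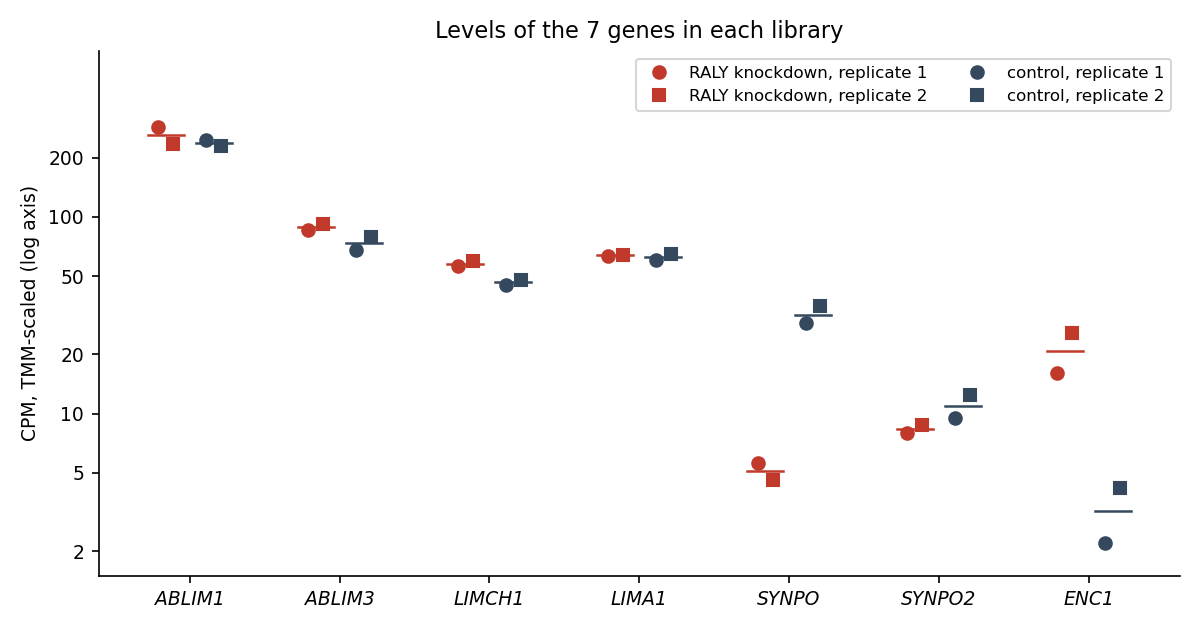
TMM-scaled CPM of the 7 genes in each library on a log axis, with RALY knockdown libraries in red to the left of control libraries in dark blue, circles for replicate 1, squares for replicate 2 and bars for group means. SYNPO lay at 5.61 and 4.57 CPM in the knockdown and at 28.7 and 35.1 CPM in the controls, ENC1 showed the opposite order, and the knockdown and control points of ABLIM1 and LIMA1 overlap.

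SYNPO encodes synaptopodin, an actin-bundling partner of alpha-actinin. The gene (ENSG00000171992) lies on chromosome 5, positions 150601080 to 150659207 on the plus strand (GRCh38), and its canonical transcript has 3 exons. It had 90 and 68 counts in the knockdown libraries, against 379 and 606 in the controls. These are 5.61 and 4.57 CPM in the knockdown and 28.7 and 35.1 CPM in the controls, so the higher knockdown library lay well below the lower control library. Group means were 5.09 ± 0.737 CPM in the knockdown and 31.9 ± 4.48 CPM in the controls (SD, n = 2 each), and the log2 fold change was -2.64 (SE 0.212). The libraries of each group differed from each other by a factor of 1.23 in the knockdown and 1.22 in the controls. In bulk RNA a lower level in every cell and a loss of the cells that hold the transcript cannot be told apart. Of 3 podocyte markers, NPHS1, which encodes nephrin, fell (log2 fold change -0.51, adjusted p = 0.03 by edgeR), while PODXL, which encodes podocalyxin and was the most abundant of them, averaged 115 CPM in the knockdown and 104 CPM in the controls (log2 fold change 0.16, edgeR adjusted p = 0.312). The transcription factor gene WT1 had 1 and 0 counts in the knockdown libraries, against 7 and 5 in the controls, and was too low to be tested. The marker sum was 141 to 155 CPM in the knockdown and 148 to 152 CPM in the controls. Their part in the SYNPO values was not tested.

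RefSeq gives SYNPO 2 start sites, and the 300 bases around each are shown here because SYNPO has the largest fall of the 7 genes and gene-level counts do not tell which start was in use. Each window runs from 250 bases before the start to 50 after it on the plus strand of GRCh38.p14, at chr5:150600826-150601125 and chr5:150640410-150640709. Capitals mark a match to the AP-1 motif TGANTCA, the binding site of FOS and JUN dimers.
SYNPO promoter 1: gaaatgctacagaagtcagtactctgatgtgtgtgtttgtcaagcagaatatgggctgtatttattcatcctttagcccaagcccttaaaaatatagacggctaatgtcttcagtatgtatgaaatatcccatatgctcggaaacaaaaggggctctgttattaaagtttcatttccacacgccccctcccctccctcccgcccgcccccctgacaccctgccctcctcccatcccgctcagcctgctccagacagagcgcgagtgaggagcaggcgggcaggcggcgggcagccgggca
SYNPO promoter 2: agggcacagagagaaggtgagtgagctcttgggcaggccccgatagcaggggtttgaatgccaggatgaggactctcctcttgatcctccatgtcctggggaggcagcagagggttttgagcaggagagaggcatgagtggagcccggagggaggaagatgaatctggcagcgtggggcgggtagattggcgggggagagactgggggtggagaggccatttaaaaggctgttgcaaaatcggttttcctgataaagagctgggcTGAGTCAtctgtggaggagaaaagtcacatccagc
The second start is that of the canonical transcript. Its window holds 1 match to TGANTCA, beginning 16 bases into the transcript, and the first window holds none. Of 35116 RefSeq promoter windows of this length, 7.71% hold that motif on either strand. The windows also differ in CpG dinucleotides, with 12 in the first and 6 in the second, against a median of 14 over all windows.

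The other promoter windows were searched on both strands for the same motif and for the CArG box of SRF, the TEAD motif GGAATG, the SMAD motif GTCTAGAC and CACCTG, an E-box bound by ZEB and SNAIL repressors. Windows were found for 6 of the 7 genes, 19 in all, and ENC1 was not matched. The AP-1 motif, in 7.71% of all windows, was found in no window of the 19 besides the second of SYNPO. None of the 19 held a CArG box or the SMAD motif, which are in 1.29% and 0.202% of all windows. GGAATG was in 4 of the 19, against 14.03% of all windows, with a pair of matches in the LIMCH1 window at the start of its canonical transcript, and single matches in another LIMCH1 window, in SYNPO2 and in LIMA1. CACCTG was found once in ABLIM3 and once in LIMA1, against 20.6% of all windows. These matches describe the windows and say nothing of binding.

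SYNPO2 encodes myopodin, a synaptopodin relative of muscle Z-discs and stress fibres that takes part in filamin turnover. It lies on chromosome 4, positions 118850688 to 119061247 on the plus strand. Its counts were 128 and 130 in the knockdown libraries, against 126 and 214 in the controls, or 7.99 and 8.74 CPM against 9.55 and 12.4 CPM. The knockdown libraries were below both controls, but by a small margin, and one control was 1.30 times the other. The log2 fold change was -0.40 (SE 0.229), with 8.36 ± 0.535 CPM in the knockdown and 10.96 ± 2.001 CPM in the controls (SD, n = 2 each). Of 5 smooth muscle markers measured beside it, 4 were tested and only CNN1, a calponin, was called, as lower (log2 fold change -1.63, edgeR adjusted p = 0.0123). DES, the most abundant of them, averaged 5.36 CPM in the knockdown and 6.04 CPM in the controls (log2 fold change -0.18, edgeR adjusted p = 0.693). LMOD1 was at -0.26 on the log2 scale (edgeR adjusted p = 0.728), and ACTG2 was too low to be tested. The marker sum was 9.55 to 11.6 CPM in the knockdown and 13.9 to 16.4 CPM in the controls. The defining gene MYH11 averaged 1.37 CPM in the knockdown and 2.59 CPM in the controls, and the part of such cells in the SYNPO2 values was not tested.

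Per kilobase of transcript, the balance of the synaptopodin pair differed between the groups. With the exon length deposited for each gene, the ratio of SYNPO to SYNPO2 was 1.34 and 0.997 in the knockdown libraries, against 5.74 and 5.40 in the controls. With canonical transcript lengths it was 0.955 and 0.711 in the knockdown, against 4.09 and 3.85 in the controls. SYNPO was thus the more abundant of the pair in both controls on either length scale. In the knockdown the order depends on the length chosen, because the deposited exon length of SYNPO2 is 19530 bases and its canonical transcript 7282. SYNPO2L, the heart and skeletal muscle relative, was low, with 12 and 12 counts in the knockdown and 16 and 20 in the controls.

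ENC1, also known as KLHL37, is expressed in the nervous system and has been described as a target of beta-catenin in colorectal tumours. It lies on chromosome 5, positions 74627406 to 74641424 on the minus strand (ENSG00000171617). ENC1 had 258 and 382 counts in the knockdown libraries, against 29 and 72 in the controls. In CPM the values were 16.1 and 25.7 in the knockdown and 2.20 and 4.17 in the controls, so the lowest knockdown library was far above the highest control. The means were 20.9 ± 6.78 CPM in the knockdown and 3.18 ± 1.39 CPM in the controls (SD, n = 2 each), and the log2 fold change was 2.68 (SE 0.317). ENC1 had the widest spread within groups of the 7 genes, by a factor of 1.60 between the knockdown libraries and 1.89 between the controls.

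ABLIM1 and ABLIM3 encode actin-binding LIM proteins, which carry LIM domains at one end and an actin-binding villin headpiece at the other. ABLIM1 lies on chromosome 10, positions 114431113 to 114768061 on the minus strand. It was the most abundant of the 7 genes, with 286 and 235 CPM in the knockdown libraries and 245 and 231 CPM in the controls. The groups overlapped, and the difference came from knockdown replicate 1 alone. Its log2 fold change was 0.13 (SE 0.133) with all libraries and -0.04 without knockdown replicate 1. ABLIM1 also had the highest occupancy of the 7, with a mean count of 25.3% of the 2 positions per base of its canonical transcript. Whether counts level off towards that number was not tested. The log2 fold change was 0.14 after a correction that assumes levelling off at 2 positions per base of the deposited exon length. The mean count was 18.7% of that larger number.

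ABLIM3 lies on chromosome 5, positions 149141483 to 149260542 on the plus strand, 1340537 bases before SYNPO. It had 86.2 and 92.4 CPM in the knockdown libraries, against 68.2 and 78.8 CPM in the controls. The knockdown libraries were both above the controls, by 1.21-fold in the fitted value (log2 fold change 0.28, SE 0.118). Within a library the ratio of ABLIM1 to ABLIM3 per kilobase of deposited exon length was 2.35 and 1.79 in the knockdown and 2.54 and 2.07 in the controls, so those ranges overlapped.

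LIMCH1 encodes a protein with a calponin homology and a LIM domain that activates non-muscle myosin II. It lies on chromosome 4, positions 41359607 to 41700044 on the plus strand. LIMCH1 had 56.0 and 59.8 CPM in the knockdown libraries, against 45.1 and 47.8 CPM in the controls. The groups did not overlap, and the libraries of each group lay close together, within a factor of 1.07 in the knockdown and 1.06 in the controls. The log2 fold change was 0.32 (SE 0.123), or 1.25-fold.

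LIMA1 encodes EPLIN, which bundles actin and links the cadherin-catenin complex of epithelial junctions to the cytoskeleton. It lies on chromosome 12, positions 50175788 to 50283546 on the minus strand. LIMA1 was the most even of the 7 genes, with 63.6 and 63.9 CPM in the knockdown libraries and 60.3 and 64.8 CPM in the controls. The knockdown values fell inside the range of the controls (log2 fold change 0.03, SE 0.116). Its sign turned without control replicate 1, at -0.06 on the log2 scale, and with no filter on low counts it lay just below 0.

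**Figure D2:**
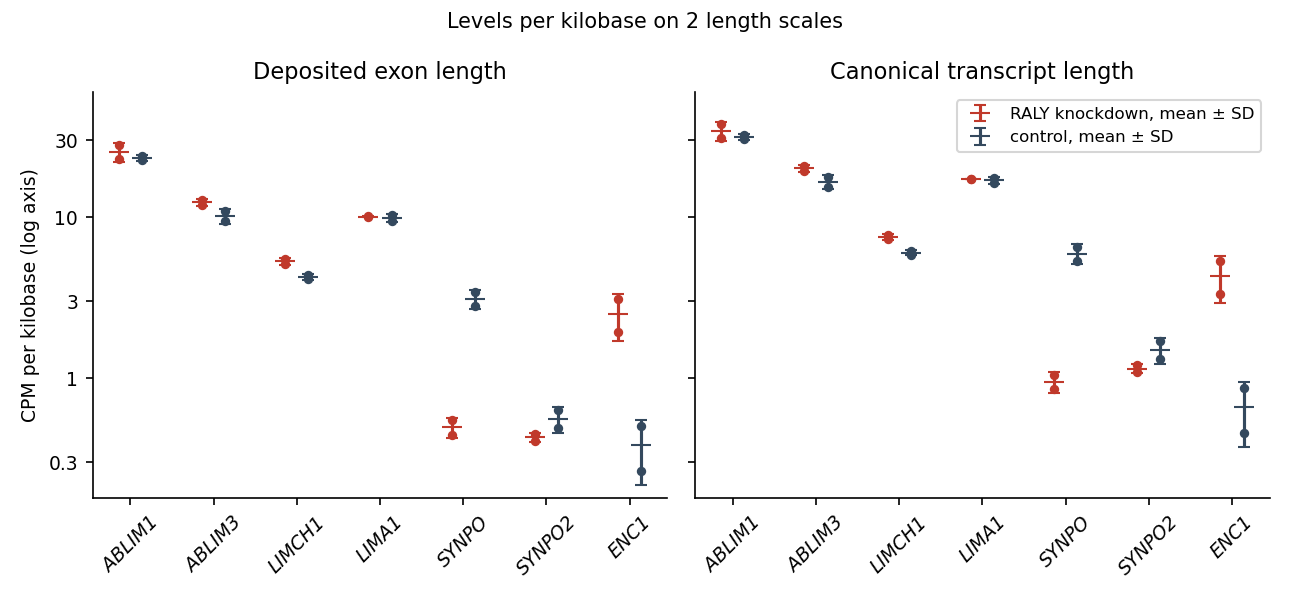
Levels of the 7 genes in CPM per kilobase on a log axis, with the deposited exon length on the left and the canonical transcript length on the right. Dots are libraries and bars mean ± SD (n = 2), with RALY knockdown in red to the left of control in dark blue. ABLIM1 is highest in both groups at 25.4 and 23.3 CPM per kilobase of deposited length, and ENC1 lies below SYNPO2 in the controls and above it in the knockdown.

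Ranked by CPM per kilobase of deposited exon length, the order in the knockdown was ABLIM1 at 25.4 ± 3.56, ABLIM3 at 12.4 ± 0.610, LIMA1 at 10.1 ± 0.0344, LIMCH1 at 5.33 ± 0.249, ENC1 at 2.52 ± 0.819, SYNPO at 0.497 ± 0.0720 and SYNPO2 at 0.428 ± 0.0274 (SD, n = 2). In the controls it was ABLIM1 at 23.3 ± 1.01, ABLIM3 at 10.2 ± 1.04, LIMA1 at 9.90 ± 0.508, LIMCH1 at 4.28 ± 0.175, SYNPO at 3.11 ± 0.437, SYNPO2 at 0.561 ± 0.102 and ENC1 at 0.384 ± 0.168 (SD, n = 2). The upper 4 places were the same in both groups on this scale, while ENC1 was lowest in the controls and stood above both synaptopodin genes in the knockdown. Of neighbours in the order, SYNPO and SYNPO2 overlapped in the knockdown. In the controls ABLIM3 overlapped LIMA1, and SYNPO2 overlapped ENC1. On the canonical transcript scale LIMA1 and ABLIM3 changed places in the controls, where they overlapped, LIMCH1 and SYNPO also overlapped in the controls, and SYNPO lay below SYNPO2 in the knockdown without overlap.

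ABLIM3, SYNPO and ENC1 lie on chromosome 5 and LIMCH1 and SYNPO2 on chromosome 4, and the remaining pair lie on chromosomes 10 and 12. RALY is known to bind U-rich RNA, so runs of at least 6 T in the canonical transcript were counted. Per kilobase, the 7 transcripts held between 0 and 0.961 such runs, against a median of 0.478 over 14280 protein-coding transcripts tested. SYNPO held none, as 33.4% of those transcripts did, and ENC1 held 2, the longest of 13 bases. SYNPO2 held 7, the longest of 26 bases, and LIMCH1 6. The transcripts of SYNPO and ENC1 had 60.9% and 47.8% G and C, against a median of 49.5%.

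Of the 14 protein-coding genes next to these 7 without overlapping them, 9 were tested and 1 was called. These are too few to set beside the 25.6% called among all genes tested. FHIP2A, which lies 53.7 kb from ABLIM1 and encodes a subunit of a dynein adaptor complex, had 104 ± 4.95 CPM in the knockdown and 57.1 ± 1.19 CPM in the controls (SD, n = 2 each; log2 fold change 0.86, SE 0.112, edgeR adjusted p = 0.000298). NDST1, upstream of SYNPO, had 99.3 ± 29.8 CPM in the knockdown and 125 ± 4.13 CPM in the controls (log2 fold change -0.33, edgeR adjusted p = 0.165). GFM2, beside ENC1, had 90.9 ± 1.04 CPM in the knockdown and 90.2 ± 3.02 CPM in the controls (log2 fold change 0.01, edgeR adjusted p = 0.953).

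Genes with the most similar pattern over the 4 libraries were sought among 12405 protein-coding genes of at least 5 CPM, by the root mean square difference of centred log2 CPM. TRPV4, a calcium channel, and UNC5A, a netrin receptor, were nearest to SYNPO, at 0.0643 and 0.105 on the log2 scale. EDN1, which encodes endothelin, was nearest to ENC1, at 0.152. TRPV4 averaged 1.35 CPM in the knockdown and 9.34 CPM in the controls, and EDN1 17.1 CPM in the knockdown and 2.21 CPM in the controls. The nearest genes to ABLIM1, ABLIM3, LIMCH1, LIMA1 and SYNPO2 were CAV2, CUEDC1, CCDC68, TMEM19 and CRADD, at 0.00793 to 0.0251. With 4 libraries in 2 groups, such likeness rests mainly on the difference between the groups for SYNPO and ENC1. For ABLIM1 and LIMA1, whose groups overlapped, it also rests on the spread within groups.

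**Figure D3:**
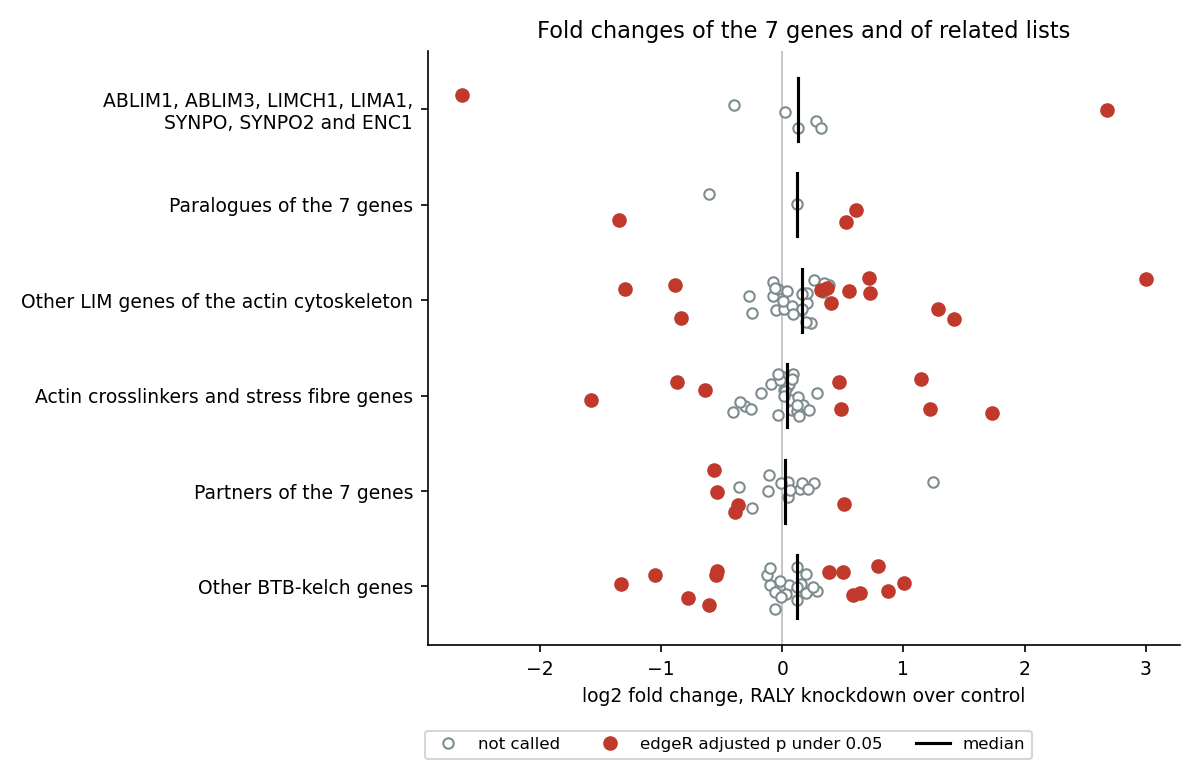
Log2 fold change, RALY knockdown over control, of the 7 genes and of the tested genes of 5 related lists, 1 point per gene with vertical scatter for legibility. Filled points passed edgeR's adjusted p under 0.05, open points did not, and black bars are medians, which lie between 0.02 and 0.17. SYNPO at -2.64 and ENC1 at 2.68 lie far from the other 5 genes of their row.

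Relatives of the 7 genes were examined first. Of 5 reported, DMTN, which encodes the actin bundler dematin with a villin headpiece like that of the ABLIM proteins, fell, and LMO7 and LIMD2 rose, too few genes to set beside the 25.6% of all genes tested. DMTN had 32.95 ± 8.28 CPM in the knockdown and 83.9 ± 8.10 CPM in the controls (log2 fold change -1.35, SE 0.162, edgeR adjusted p = 0.000191). LMO7, the closest relative of LIMCH1, had 103 ± 7.43 CPM in the knockdown and 71.1 ± 4.88 CPM in the controls (log2 fold change 0.53, SE 0.116, edgeR adjusted p = 0.00602), and LIMD2 was at 0.61 on the log2 scale (edgeR adjusted p = 0.0192). SYNPO2L (log2 fold change -0.60, edgeR adjusted p = 0.328) and KLHL25, an ENC1 relative (0.12, edgeR adjusted p = 0.646), did not pass. LMO7 and LIMD2 lost their calls without control replicate 1 (edgeR adjusted p = 0.0708 and 0.158) or 2 (0.122 and 0.217), and LIMD2 also without knockdown replicate 2 (0.0723). The chi-square of the counts divided by its degrees of freedom was 10.2 between the knockdown libraries and 5.42 between the controls, and its part in the lost calls was not tested.

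Of 36 other LIM genes of the actin cytoskeleton that were tested, 9 rose and 3 fell, or 25% and 8.33%, beside 12.5% and 13.1% of all genes tested. The median log2 fold change was 0.17, beside 0.01 over all genes tested, and whether the list differs from other genes was not tested. AJUBA, a junction and Hippo pathway adaptor, had 109 ± 3.84 CPM in the knockdown and 40.6 ± 5.88 CPM in the controls, a 2.68-fold rise (SD, n = 2 each; edgeR adjusted p = 3.46e-05). TGFB1I1, which encodes the focal adhesion protein HIC-5, rose 2.44-fold (edgeR adjusted p = 0.00016), LIMK2 1.66-fold and FHL3 1.64-fold. The paralogous kinases that phosphorylate cofilin moved in opposite directions. LIMK2 had 95.7 ± 9.39 CPM in the knockdown and 57.8 ± 1.65 CPM in the controls, while LIMK1 had 54.7 ± 3.56 CPM in the knockdown and 101 ± 3.27 CPM in the controls (log2 fold change -0.88, edgeR adjusted p = 0.000298). LPXN, the leukocyte paxillin relative leupaxin, fell to 3.44 ± 0.779 CPM in the knockdown, against 8.49 ± 0.219 CPM in the controls. Without control replicate 1, 2 of the list were called as higher and 1 as lower, and without control replicate 2, 3 and 1. FHL3 and LPXN lost their calls in both of these fits (edgeR adjusted p between 0.0782 and 0.100), and LIMK2 without control replicate 1 (0.0552).

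Among 35 tested actin crosslinkers and stress fibre genes, 5 rose and 3 fell, or 22.9% in both directions, which is near the 25.6% of all genes tested. The median log2 fold change was 0.04, beside 0.01 over all genes tested. Occupancy of the 2 positions per base of canonical transcript ran from 0.453% for NEXN to 102% for ACTG1, with ACTB at 83.0%. Whether high occupancy hid changes in such genes was not tested. After the correction for an assumed levelling off, 5 of the list were called as higher and 4 as lower. MYH14, a non-muscle myosin II heavy chain, fell to 52.1 ± 5.89 CPM in the knockdown, against 156 ± 3.44 CPM in the controls (SD, n = 2 each; log2 fold change -1.58, SE 0.119, edgeR adjusted p = 1.31e-05). EVL, an actin-elongating Ena/VASP protein, was 1.82-fold lower, whereas its relative ENAH was 1.39-fold higher, at 354 ± 23.0 CPM in the knockdown and 255 ± 6.25 CPM in the controls. TAGLN, a smooth muscle actin-binding protein, rose 2.33-fold and MYL9, a myosin light chain, 1.40-fold. FLNC, the muscle filamin that binds SYNPO2, was at 1.15 on the log2 scale (edgeR adjusted p = 0.0253), with 8.49 ± 4.25 CPM in the knockdown and 3.83 ± 0.263 CPM in the controls. That value rests on knockdown replicate 2, without which it was 0.52 (edgeR adjusted p = 0.242). Without either control 1 of the list was called as higher, and TAGLN (without control replicate 2, edgeR adjusted p = 0.0507), EVL (without control replicate 2, 0.0806), and MYL9, ENAH and FLNC (without either, 0.0811 to 0.251) lost their calls. Of the list, 6 were called as lower without knockdown replicate 1, 3 without control replicate 1 and 1 without control replicate 2.

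Partners of the 7 proteins gave 1 higher and 4 lower of 18 tested, or 27.8% in both directions, which is near the 25.6% of all genes tested. Their median log2 fold change was 0.02. CD2AP, an adaptor that binds synaptopodin in podocytes, had 176 ± 2.55 CPM in the knockdown and 124 ± 3.06 CPM in the controls (SD, n = 2 each; log2 fold change 0.51, edgeR adjusted p = 0.00546). STUB1, a ubiquitin ligase of the chaperone-assisted turnover of filamin in which SYNPO2 takes part, was at -0.56 on the log2 scale, with a count made uncertain by the 42.5% of its exon bases shared with JMJD8 on the opposite strand. CUL3, the scaffold to which BTB-kelch adaptors bind, and KEAP1, another adaptor of that ligase, were at -0.37 and -0.54 (edgeR adjusted p = 0.0274 and 0.0281). MYO5B, an unconventional myosin that binds EPLIN, was at -0.39 (edgeR adjusted p = 0.0298). None of the list was called without control replicate 1 or 2, where the edgeR adjusted p of these 5 genes lay between 0.0603 and 0.254. Without knockdown replicate 2, 3 were called as higher and 1 as lower, and CUL3, KEAP1 and MYO5B lost their calls (0.0608, 0.0976 and 0.156).

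In the other BTB-kelch genes, 7 of 31 rose and 6 fell, or 22.6% and 19.4%, beside 12.5% and 13.1% of all genes tested, and the median log2 fold change was 0.12. Whether this list differs from other genes was not tested. None of the named members of this list moved as far as ENC1. KBTBD8 was 2.01-fold higher, with 51.2 ± 10.6 CPM in the knockdown and 25.5 ± 0.712 CPM in the controls, and KLHL15, KLHL28 and KLHL18 were 1.83-fold, 1.73-fold and 1.56-fold higher (edgeR adjusted p between 0.000235 and 0.00216). KLHL24, known for the turnover of keratin, was 2.51-fold lower, with 17.7 ± 2.22 CPM in the knockdown and 44.2 ± 2.87 CPM in the controls (SD, n = 2 each; edgeR adjusted p = 0.00017). KLHL36 was 2.07-fold lower (edgeR adjusted p = 7.88e-05). Without control replicate 1, 1 was called as higher and 3 as lower, and without control replicate 2, 2 and 2. KBTBD8 and KLHL18 lost their calls in both fits (0.0544 to 0.0733) and KLHL28 without control replicate 1 (edgeR adjusted p = 0.0913).

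**Figure D4:**
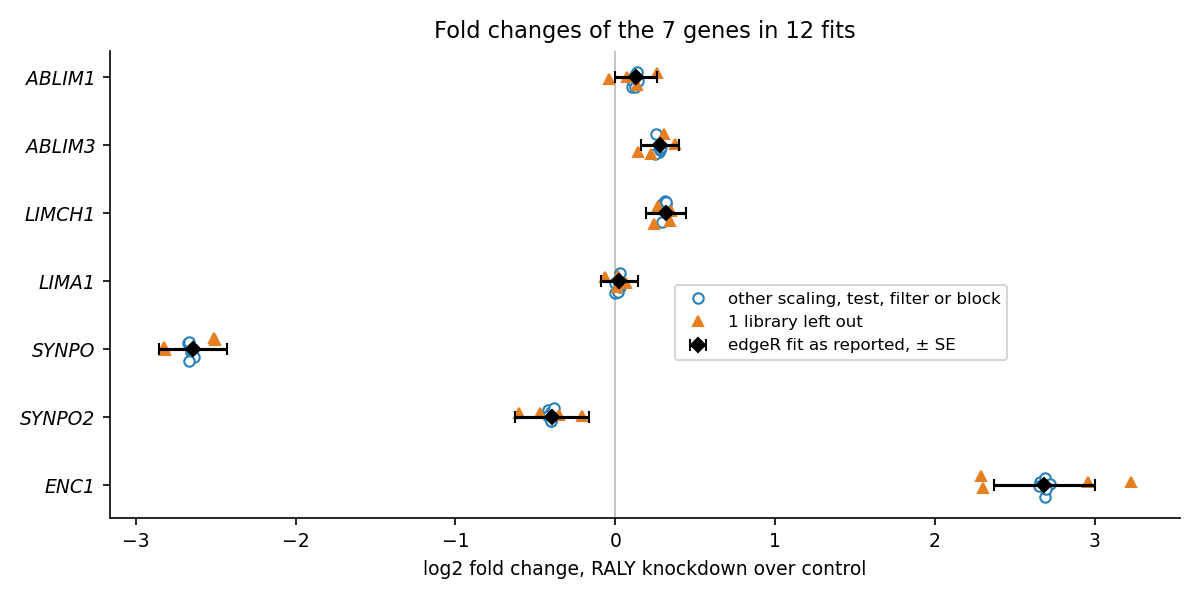
Log2 fold change, RALY knockdown over control, of the 7 genes in 12 fits. Black diamonds with bars are the edgeR fit with its SE, open circles other scalings, tests, filters or the replicate block, and triangles fits without 1 library. SYNPO stays between -2.82 and -2.51 and ENC1 between 2.29 and 3.23, while ABLIM1 and LIMA1 lie on both sides of 0.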

How the data were processed

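The authors deposited 1 table per library with raw read counts for each Ensembl gene, laid out as featureCounts output, per the file headers. HISAT2 2.0.4, SAMtools, featureCounts and Subread were used with build GRCh38, per the submitters' processing notes. No source used here says whether counting used strand, so reads of overlapping genes on opposite strands may not be separable. Of 58884 genes, 58472 were named through GENCODE release 44, which also gave canonical transcripts, and promoter windows came from RefSeq.

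Counts were filtered with filterByExpr (19686 genes left), scaled with TMM factors and fitted with a robust quasi-likelihood model on the group in edgeR 4.0.16 (R 4.3.3). P-values were adjusted by Benjamini-Hochberg over all genes tested, and genes were called at an adjusted p under 0.05. The fit was tested on simulated data. Counts limit precision, with 3 counts equal to 0.178 to 0.225 CPM, and such limits cover counting error only. The 7 genes and the related lists were chosen with earlier results of these data known. Named from each list were at most 4 called genes by smallest p in the commoner direction and at most 2 in the opposite one, besides all tested relatives and the 2 genes most alike in pattern, not all of which are discussed, and some genes are not reported here. Alternatives were DESeq2 size factors, plain totals, the DESeq2 1.42.0 Wald test, no filter, a minimum of 1 CPM in 2 libraries, a block for the replicate number, fits without each library, and counts corrected for an assumed levelling off at 2 positions per base of deposited length.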

Additional observations from a re-analysis of the deposited data

How the results depend on the processing

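Over the 11 alternatives the log2 fold change of SYNPO lay between -2.82 and -2.51 and that of ENC1 between 2.29 and 3.23. These refit the contrast that chose the genes and lend their differences no support. The numbers pair the libraries by name only, and with 2 pairs the correlation of same-numbered deviations (0.209) is 1 value. With the block, 3518 genes were called as higher and 3536 as lower, against 2470 and 2578 without it. The block also gave 6 actin crosslinkers and stress fibre genes as lower and 2 partners as higher. Of the 7 genes, LIMCH1 was called as higher with the block, besides ENC1, and this call too lends no support. Leaving out 1 library moved the calls over all genes to between 340 and 2908 higher and between 508 and 3351 lower. Among the lists the ranges were 0 to 2 higher and 1 to 1 lower for the relatives, 2 to 10 and 1 to 4 for other LIM genes, 1 to 5 and 1 to 6 for stress fibre genes, 0 to 3 and 0 to 5 for partners, and 1 to 7 and 2 to 6 for other BTB-kelch genes. KLHL25 changed sign without knockdown replicate 2 (its log2 fold change ran from -0.011 to 0.224 with 1 library left out), and the cause was not tested. With 2 libraries a group, ENC1 rests on 29 and 72 control counts, and its log2 fold change moved with the library left out.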
